A study of Mus musculus with 106 samples.

Results

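Cerebral somatostatin (SST+) neurons of control mice were profiled with RiboTag, and the mRNA recovered by immunoprecipitation (IP) was compared with the total RNA (input) of the same kind of tissue. The libraries were those whose labels give control as genotype, SST as cell type and the cerebrum as tissue. They numbered 9 of the 106 libraries of the series, 5 RiboTag IPs and 4 inputs. By the identifiers in the labels they came from 6 mice, of which BR10, BR17 and Z59 gave both an IP and an input.

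In the study's breeding scheme, control mice were Hdh Q7/Q7 and HD mice Hdh Q7/Q200 on a 129S4 background, and both were heterozygous for a Cre driver and for the RiboTag allele of Rpl22. Cre adds a hemagglutinin (HA) tag to this ribosomal protein in the cells where the driver is active. The cerebrum was a frozen hemisphere without olfactory bulb and cerebellum, and the RiboTag mice were about 9 months old. The methods name vGluT2-, Gad2- and PV-IRES-Cre drivers, while the driver of the SST line, and whether scheme and age apply to it unchanged, are not stated. The HD mice of the SST line (4 IPs, 3 inputs) and the control PV and Gad2 lines (6 IPs and 3 inputs each) served as comparisons. Any cell in which the driver was active at some earlier time would keep the tag.

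Somatostatin neurons are GABAergic cells that release inhibitory transmitter together with neuropeptides. In the cortex many of them are Martinotti cells, whose axons reach the outermost layer and inhibit the distal dendrites of pyramidal neurons. A smaller class carries nitric oxide synthase and sends long axons, and in the striatum, amygdala and hypothalamus other somatostatin cells serve local circuits or hormone release.

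The 9 libraries held 24279953 to 42697297 counts on mouse genes (median 31514507). IP replicates 1, 2, 3, 4 and 6 held 31514507, 30112946, 40913915, 30536342 and 28527929, and input replicates 1 to 4 held 42697297, 24279953, 34872732 and 40012143. Across protein-coding genes, log2 CPM correlated at 0.968 to 0.991 between IPs, at 0.973 to 0.994 between inputs and at 0.864 to 0.967 between an IP and an input. The first principal component carried 74.3% of the variance and separated the preparations. On it the IPs lay at 24.9, 43.1, 34.2, 50.4 and 65.8 and the inputs at −71.5, −62.7, −57.5 and −26.6. The libraries of mouse Z59, IP replicate 6 and input replicate 4, were thus the farthest from the opposite preparation among IPs and the nearest among inputs. The libraries of mouse BR17, IP replicate 1 and input replicate 2, held the most hemoglobin counts of their preparation.

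*Sst*, which encodes the precursor of somatostatin, stood at 1710, 1590, 1710, 1690 and 955 CPM in IP replicates 1, 2, 3, 4 and 6. In input replicates 1 to 4 it stood at 158, 160, 143 and 117 CPM. Every IP lay far above every input, and IP replicate 6 was the lowest of the IPs. The IP mean was 10.6-fold the input mean, a log2 ratio of 3.40 ± 0.21 (SE, edgeR adjusted p = 1.80e-06). Per kilobase of exon, the scale on which levels of different genes can be compared, *Sst* reached 2120 CPM per kb in IP and 200 CPM per kb in input. It ranked 1 of 14789 genes in IP and 262 in input.

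*Npy*, the precursor of neuropeptide Y and a peptide of many somatostatin cells, was at 454, 404, 424, 460 and 266 CPM in the IPs. The inputs held 78, 65.3, 54.2 and 43.7 CPM. The groups did not overlap, and IP replicate 6 was again the lowest IP. The ratio was 6.66-fold (log2 2.74 ± 0.22, edgeR adjusted p = 6.84e-06). On the per kilobase scale *Npy* moved from rank 522 in input to rank 12 in IP. Both peptides thus carried the SST label of the line. Neither in the ribosome-bound RNA of an IP nor in the total RNA of an input can cell number and RNA per cell be told apart. Every ratio here compares these preparations.

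The *Sst* ratio also depended on its denominator. On a scale shared by the control cerebral lines, *Sst* was at 114 to 162 CPM in the 4 SST inputs and at 183 to 435 CPM in the inputs of the PV, Gad2 and vGluT2 lines. The ranges did not overlap. The HD inputs of the SST line were at 220, 114 and 290 CPM. They were scaled separately and differ in genotype, so that they cannot be set directly against these ranges. With the inputs of all 4 lines as reference the log2 ratio was 2.61 ± 0.25, against 3.40 with the inputs of the SST line alone. For *Npy* the SST inputs (42.7 to 77.9 CPM) overlapped those of the other lines (41.7 to 100 CPM), and the ratio was 2.66 ± 0.18 with all inputs. Whether the driver allele bears on the *Sst* level in the SST line was not tested.

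**Figure D1:**
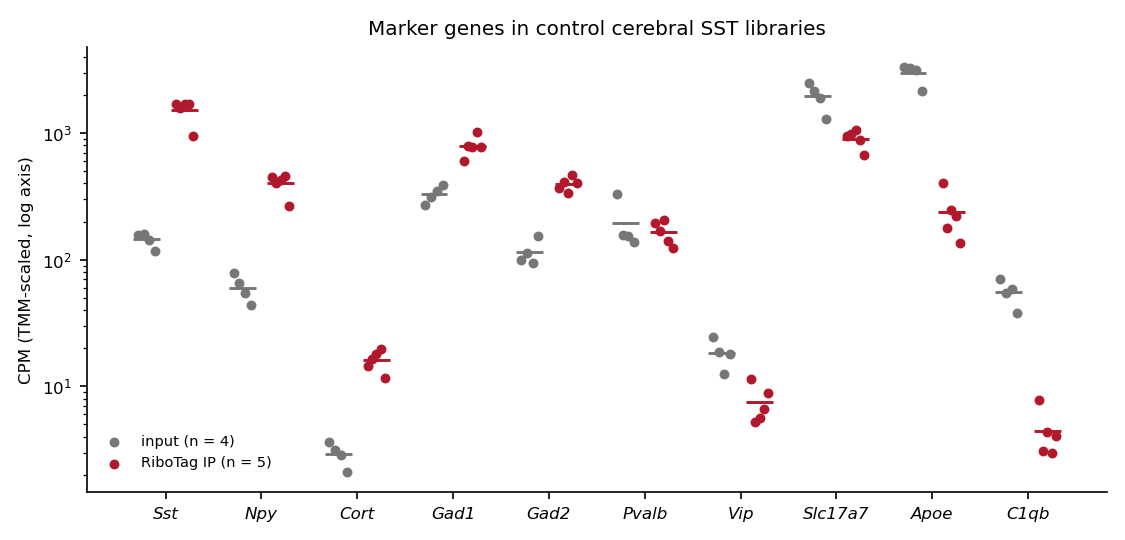
CPM of 10 marker genes on a log axis in each control cerebral SST library, grey for the 4 inputs and red for the 5 RiboTag IPs, with bars at group means. *Sst*, *Npy* and *Cort* lie above every input in all 5 IPs, *Apoe* and *C1qb* below every input, while *Pvalb* overlaps.

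The *Sst* promoter is shown because the gene is the label of the line and had the highest level per kilobase in IP. The window is the 250 bases before the RefSeq transcript start in GRCm38.p6, chr16:23890845-23891094 on the minus strand. The capitals mark the cAMP response element TGACGTCA, the element through which CREB acts on this gene.

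Sst promoter: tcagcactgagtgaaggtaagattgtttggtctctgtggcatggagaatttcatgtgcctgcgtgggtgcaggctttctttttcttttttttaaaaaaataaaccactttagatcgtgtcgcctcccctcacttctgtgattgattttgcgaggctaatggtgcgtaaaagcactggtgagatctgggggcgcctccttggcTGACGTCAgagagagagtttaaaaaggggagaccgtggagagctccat

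The element lay at bases −48 to −41 from the start. The GENCODE gene model ends at 23890958, inside this window, so that part of the window, with the element, lies within the longest model. The letters read the same on both strands. They were found in the windows of 478 of 27025 genes in the promoter table (1.77%), in 1 of the 10 somatostatin neuron genes with a window there (*Sst*) and in 0 of 8 subtype genes. A match describes the sequence only, and the absence of a match says that these letters are not in the window.

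Of 14789 protein-coding genes tested, 7499 (50.7%) differed between IP and input at an edgeR adjusted p of 0.05 or less. They comprised 3838 genes higher in IP (26.0% of those tested) and 3661 lower (24.8%). At 2-fold or more, 1987 (13.4%) were higher and 1515 (10.2%) lower, 3502 (23.7%) in all. For 6015 genes (40.7%) the 5 IPs and 4 inputs did not overlap, and 5757 of them were called. The median log2 ratio of all genes was −0.02. With the Z mice alone (3 IPs, 2 inputs) 3601 genes were called.

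All 13 genes of the somatostatin neuron list were measured and higher in IP, 13 of 13 beside 26.0% of all genes. Their median log2 ratio was 1.66 beside −0.02 for all genes. After *Sst* and *Npy*, the largest ratios were those of *Crhbp*, which binds corticotropin-releasing hormone (2.72 ± 0.21), and of *Cort*, which encodes the somatostatin-related peptide cortistatin (2.45 ± 0.22). *Crhbp* was at 101, 152, 154, 184 and 103 CPM in the IPs and at 24.3, 19.6, 21.8 and 18.8 in the inputs. *Cort* was at 14.5, 16.4, 17.9, 19.6 and 11.7 CPM in the IPs and 3.62, 3.12, 2.89 and 2.1 in the inputs. For both genes IP replicates 1 and 6 were the lowest IPs, yet above every input.

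*Pdyn*, the precursor of the dynorphin opioid peptides, had 182, 231, 278, 296 and 173 CPM in the IPs and 76.6, 72.6, 76.3 and 54.9 CPM in the inputs, a log2 ratio of 1.73 ± 0.20. The synaptic genes of the list ranged more widely. *Grin3a*, a subunit of NMDA receptors, had a log2 ratio of 1.70 ± 0.21. *Elfn1*, a postsynaptic adhesion protein that sets release onto somatostatin cells, had one of 1.66 ± 0.28. *Nxph1*, a secreted ligand of neurexins, stood at 1.49 ± 0.15 and *Reln*, the secreted glycoprotein reelin, at 1.45 ± 0.23. The retinol carrier *Rbp4* was at 1.53 ± 0.24 and the calcium buffer *Calb1* at 0.96 ± 0.20. In the IPs *Elfn1* ran from 81.4 to 210 CPM and *Reln* from 84.7 to 227 CPM, in each case with replicate 1 lowest and replicate 4 highest.

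The smallest ratio in the list was that of *Cbln4*, which encodes a secreted cerebellin (0.40 ± 0.14, edgeR adjusted p = 0.0292). Its IPs (32.8 to 45.2 CPM) lay above its inputs (27.7 to 29.6 CPM). The call was lost without IP replicate 1 (0.36, adjusted p = 0.0503) or 2 (0.32, adjusted p = 0.088). It was also lost without input replicate 2 (0.41, adjusted p = 0.0605), 3 (0.40, adjusted p = 0.0677) or 4 (0.38, adjusted p = 0.0527). The summed level of the 13 genes was 3270, 3420, 3520, 3890 and 2400 CPM in the IPs and 759, 699, 680 and 654 CPM in the inputs. The sum of the IPs was 4.73-fold that of the inputs, and *Sst* was the most abundant member per kilobase in both.

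The 11 genes that divide somatostatin neurons into subtypes were all tested. Of these, 8 were higher in IP, 1 was lower and 2 did not pass, beside 26.0% higher and 24.8% lower among all genes. The median log2 ratio was 0.93. With the mouse as a block, in BR mice or in Z mice 6 were higher. *Hpse*, which encodes heparanase, was at 5.51, 9.34, 9.81, 11 and 5.38 CPM in the IPs and at 0.641, 0.804, 1.22 and 1.1 CPM in the inputs (log2 3.11 ± 0.31). *Myh8*, a myosin heavy chain, ran from 4.33 to 9.69 CPM in IP and from 0.525 to 0.995 CPM in input (2.99 ± 0.33). Both genes were low in level but far apart between the preparations.

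Among genes of the long-range class, *Chodl*, which encodes the membrane protein chondrolectin, was at 8.4, 8.3, 6.3, 8.83 and 8.19 CPM in the IPs and 2.54, 2.32, 1.12 and 3.09 in the inputs (log2 1.81 ± 0.27). The substance P receptor *Tacr1* had a log2 ratio of 0.93 ± 0.17 without overlap. Neuronal nitric oxide synthase, *Nos1*, had the same ratio of 0.93 ± 0.24, but its IPs (91.3 to 240 CPM) overlapped its inputs (70.6 to 98.6 CPM). With the mouse as a block the *Nos1* ratio was 0.63 (edgeR adjusted p = 0.0621), and in BR mice alone 0.66 (adjusted p = 0.107).

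The peptide *Crh* had a log2 ratio of 1.23 ± 0.19, with 13.6 to 17.5 CPM in IP and 4.96 to 8.63 CPM in input. The nicotinic receptor subunit *Chrna2*, a mark of deep-layer Martinotti cells, had a ratio of 1.47 ± 0.29 at 2.94 to 4.14 CPM in IP (1.50, adjusted p = 0.0523, in Z mice alone). *Calb2*, which encodes calretinin, was lower in IP, at 114, 121, 122, 104 and 80.9 CPM against 207, 181, 144 and 159 CPM in the inputs. All IPs lay below all inputs (log2 −0.67 ± 0.16, edgeR adjusted p = 0.00413), and Z mice alone gave −0.57 (adjusted p = 0.0889). *Tac1*, the substance P precursor, stood at 0.07 ± 0.19 and the transcription factor *Etv1* at −0.22 ± 0.27, and neither passed.

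Of the 13 transcription factors of interneurons, 11 were higher in IP and 2 did not pass, with a median of 1.50, beside 26.0% higher among all genes. *Lhx6*, needed by interneurons born in the medial ganglionic eminence, was at 88.2, 93.5, 112, 141 and 70.7 CPM in the IPs and 16.2, 21.9, 22.4 and 19.6 CPM in the inputs (log2 2.34 ± 0.21). Its partners in the same lineage followed, with *Satb1* at 1.64 ± 0.19, *Sox6* at 1.50 ± 0.25 and *Maf* at 1.34 ± 0.13. The homeobox genes of forebrain GABAergic precursors were higher too, *Dlx1* with 1.95 ± 0.21 and *Dlx6* with 1.84 ± 0.18. *Prox1* (0.49 ± 0.21) and *Nr2f2* (0.21 ± 0.17), both used by interneurons of the caudal ganglionic eminence, did not pass. Without IP replicate 3 both passed, at 0.60 (edgeR adjusted p = 0.0182) and 0.34 (adjusted p = 0.0486), and *Prox1* also without input replicate 4 (0.60, adjusted p = 0.04). *Prox1* further passed with the mouse as a block (0.67, edgeR adjusted p = 0.0154), in BR mice alone (0.72, adjusted p = 0.0304) and with library size alone (0.62, adjusted p = 0.037).

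Of 5 genes for GABA synthesis and transport, 4 were higher in IP, with a median of 0.62, beside 26.0% of all genes, but only 2 with the mouse as a block or in BR mice alone. *Gad2* was at 371, 409, 337, 463 and 401 CPM in the IPs and at 99.6, 114, 95 and 155 in the inputs (log2 1.77 ± 0.18). *Gad1* was at 598, 795, 773, 1020 and 777 CPM in the IPs and 270, 311, 348 and 392 in the inputs (1.26 ± 0.18). Both glutamate decarboxylases were thus without overlap. The vesicular transporter *Slc32a1* stood at 0.62 ± 0.20, with overlap. It did not pass without IP replicate 4 (0.51, edgeR adjusted p = 0.06), input replicate 1 (0.60, adjusted p = 0.057) or input replicate 4 (0.56, adjusted p = 0.0554), nor with the mouse as a block (0.35, adjusted p = 0.222). The GABA transaminase gene *Abat* was also lost with the block (0.49, edgeR adjusted p = 0.0562).

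Of 11 peptide processing and dense-core vesicle genes, 5 were higher in IP and 6 did not pass, with a median of 0.33, a share called near the 50.7% of all genes. With the mouse as a block 4 were higher and 1 lower. *Chgb* (chromogranin B) had a log2 ratio of 1.11 ± 0.18, *Scg2* (secretogranin II) of 0.86 ± 0.15 and the amidating enzyme *Pam* of 0.81 ± 0.14, each without overlap. The convertase *Pcsk2* was at −0.10 ± 0.14 and *Chga* at 0.01 ± 0.20. Within the list the carboxypeptidase *Cpe* had the highest level per kilobase in both preparations, 887 CPM per kb in IP. Its ratio of 0.33 was no longer called when any library other than IP replicate 4 or input replicate 4 was left out (0.28 to 0.36).

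Of 8 receptors for somatostatin and neuropeptide Y, 1 was higher, 1 lower and 6 did not pass, beside 50.7% called among all genes. Their median was −0.22. *Sstr2* was lower in IP, with 13.9, 15.1, 15, 12.8 and 10.7 CPM against 33.8, 24.4, 25.9 and 22.7 CPM (log2 −0.98 ± 0.16). *Sstr1* (0.29 ± 0.26), *Sstr3* (0.29 ± 0.17) and *Sstr4* (−0.53 ± 0.34) did not pass, although *Sstr1* did without IP replicate 1 (0.47, edgeR adjusted p = 0.039). With the inputs of all 4 lines *Sstr3* (0.286, edgeR adjusted p = 0.0312) and *Sstr4* (−0.663, adjusted p = 0.0186) passed. With the replicate number of the titles as a block 3 of the 8 were lower. *Npy1r* (−0.489, edgeR adjusted p = 0.0373) and *Npy5r* (−0.808, adjusted p = 0.0247) then passed. *Npy2r*, a presynaptic neuropeptide Y receptor, was higher in IP (0.69 ± 0.18), but not in Z mice alone (0.67, adjusted p = 0.115).

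Of 9 PV interneuron genes, 3 were higher, 1 was lower and 5 did not pass, with a median of 0.30, beside 26.0% higher and 24.8% lower among all genes. With the mouse as a block 2 were higher and 1 lower, and in BR mice alone 1 was higher and none lower. *Pvalb*, the parvalbumin gene that defines the class, was at 194, 169, 207, 140 and 123 CPM in the IPs and 332, 158, 155 and 137 in the inputs. The groups overlapped (log2 −0.23 ± 0.26), and without input replicate 1 the ratio was 0.15. The potassium channel gene *Kcnc2* was higher in IP, at 1.51 ± 0.20. Summed, the 9 genes held 2430, 2560, 2610, 2540 and 2010 CPM in the IPs and 2050, 2440, 2350 and 2010 in the inputs, and *Cplx1* was the most abundant per kilobase.

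Of 8 Vip and Lamp5 interneuron genes, 3 were higher, 4 lower and 1 did not pass (median −0.18), beside 26.0% higher and 24.8% lower among all genes. *Vip* fell from 24.4, 18.8, 12.6 and 18 CPM in the inputs to 11.4, 5.2, 5.66, 6.63 and 8.93 CPM in the IPs (log2 −1.29 ± 0.25). *Cck* was at 466, 281, 275 and 191 CPM in the inputs and 86.2, 46.3, 57.5, 46.5 and 35.7 CPM in the IPs (−2.48 ± 0.28). Neither peptide gene overlapped between preparations. The serotonin receptor *Htr3a*, shared by interneurons of caudal origin, was at −1.27 ± 0.21. *Ndnf*, a mark of neurogliaform cells, was higher in IP (1.24 ± 0.22). The 8 genes together held 475, 435, 376, 367 and 444 CPM in the IPs and 818, 602, 614 and 545 in the inputs. Its most abundant gene per kilobase was *Lamp5* in IP and *Cck* in input.

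Genes of striatal projection neurons were lower or did not pass for 9 of 10 (5 lower, 4 not passed, 1 higher), with a median of −0.51, beside 24.8% lower among all genes. The 1 higher, the phosphodiesterase *Pde10a* (0.46), was no longer called in 6 of the 9 fits without a library (0.33 to 0.46), with the mouse as a block (0.51), or in BR (0.64) or Z mice (0.33) alone. *Ppp1r1b*, encoding DARPP-32, was at 168, 116, 134, 127 and 84.4 CPM in the IPs and 565, 575, 563 and 381 in the inputs (log2 −2.05 ± 0.20). The orphan receptor *Gpr6* was at −1.30 ± 0.19 and the adenosine receptor *Adora2a* at −1.14 ± 0.18. The dopamine receptors *Drd1* (−0.02 ± 0.15) and *Drd2* (−0.37 ± 0.17) did not pass. *Drd2* passed without input replicate 4 (−0.48, edgeR adjusted p = 0.0235). The 10 striatal genes held 1070, 1060, 1080, 974 and 903 CPM in the IPs and 1820, 1880, 1890 and 1380 in the inputs, and *Penk*, the enkephalin precursor, was its most abundant gene per kilobase.

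For glutamatergic neurons 7 of 11 genes were lower, 2 higher and 2 not passed (median −0.86), beside 24.8% lower and 26.0% higher among all genes. The vesicular transporter *Slc17a7* was at 942, 987, 1050, 875 and 676 CPM in the IPs and 2480, 2150, 1900 and 1290 in the inputs (log2 −1.11 ± 0.19). *Neurod6* (−1.89 ± 0.19) and *Emx1* (−1.91 ± 0.20), transcription factors of cortical pyramidal neurons, were lower in all IPs. *Slc17a6*, the other vesicular glutamate transporter, was higher in IP, at 85.8 to 150 CPM against 50.4 to 83 CPM (1.02 ± 0.20), but not in Z mice alone (0.77, edgeR adjusted p = 0.115). The sum of the glutamatergic genes was 3700, 3630, 3870, 3670 and 3380 CPM in the IPs and 5500, 6320, 6460 and 4640 in the inputs. *Camk2a* was the most abundant gene per kilobase in both.

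The 11 peptides of hypothalamic neurons comprised 8 lower, 2 higher and 1 not passed, with a median of −1.37, beside 24.8% lower and 26.0% higher among all genes. BR mice alone gave 4 lower and 1 higher, Z mice 5 lower and 0 higher, and without input replicate 3 none was higher. Their sum was 100, 59, 61.6, 55 and 54.3 CPM in the IPs and 110, 146, 96.1 and 149 in the inputs, with *Nts* the most abundant per kilobase in IP and *Oxt* in input. *Gal* (galanin) was at 3.59, 1.87, 1.93, 1.7 and 1.96 CPM in the IPs and 7.38, 7.47, 4.73 and 7.29 in the inputs. Of 3 cholinergic genes, 1 was higher, 1 lower and 1 did not pass (median −0.20), beside the same shares of all genes. The higher, the choline transporter *Slc5a7* (0.95), was no longer called without input replicate 1 (0.90), 2 (0.89) or 3 (0.87), without mouse BR17 (0.94) or in Z mice alone (0.86). *Chat*, which makes acetylcholine, stood at −0.20 ± 0.22, and the list summed to 21.7, 23.2, 21.3, 18.9 and 36.6 CPM in the IPs and 25.1, 27.6, 24.6 and 27.6 in the inputs, with *Slc5a7* the most abundant per kilobase in IP and *Slc18a3* in input.

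Most glial genes were lower in IP. For astrocytes 8 of 10 genes were lower, 1 was higher and 1 did not pass (median −1.42). Among all genes 24.8% were lower and 26.0% higher. *Apoe* was at 404, 177, 245, 221 and 136 CPM in the IPs and 3310, 3280, 3150 and 2160 in the inputs, 12.6-fold lower (log2 −3.65 ± 0.28). *Aldh1l1*, a folate enzyme of astrocytes, was at −1.74 ± 0.17 and the GABA transporter *Slc6a11* at −2.20 ± 0.20. The glutamate transporter *Slc1a2* was higher in IP, at 1810, 1940, 1260, 1250 and 2510 CPM against 654, 682, 929 and 1460 CPM. The groups overlapped (0.92 ± 0.27). It did not pass in Z mice alone (0.49, edgeR adjusted p = 0.355) or without mouse BR17 (0.78, adjusted p = 0.058). The astrocyte genes together held 3110, 2770, 2030, 1960 and 3380 CPM in the IPs and 5750, 5890, 5960 and 5490 in the inputs, with *Slc1a2* the most abundant per kilobase in IP and *Apoe* in input.

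For the oligodendrocyte lineage 8 of 11 genes were lower, 1 was higher and 2 did not pass (median −1.22). The shares of all genes were 24.8% lower and 26.0% higher. The lineage factor *Sox10* was at 18.1, 13.8, 13.2, 9.23 and 13.3 CPM in the IPs and 82.3, 73.9, 83 and 51.8 in the inputs (log2 −2.43 ± 0.20). The myelin gene *Mbp* was at −1.51 ± 0.19. Summed over the lineage, the genes held 5560, 3650, 3830, 3300 and 4460 CPM in the IPs and 7160, 6760, 6400 and 5940 in the inputs, with *Mbp* the most abundant per kilobase in input.

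All 10 microglia genes were lower in IP, beside 24.8% of all genes, with a median of −2.21. The complement gene *C1qb* was at 7.74, 3.1, 4.35, 3 and 4.03 CPM in the IPs and 70.5, 54.6, 58.3 and 38.2 in the inputs, 12.4-fold lower. The microglial marker *Tmem119* was at −2.56 ± 0.19 and the growth factor receptor *Csf1r* at −2.14 ± 0.16. Microglia genes together held 137, 94.2, 102, 84.4 and 96.3 CPM in the IPs and 477, 453, 463 and 332 in the inputs, with *C1qa* the most abundant per kilobase.

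Vascular genes were lower for 5 of 7, and 2 did not pass (median −0.87), beside 24.8% lower among all genes. The endothelial adhesion gene *Pecam1* was at −1.25 ± 0.20, and the list summed to 111, 89.8, 92.6, 77.2 and 104 CPM in the IPs and 155, 164, 144 and 132 in the inputs, with *Cldn5* the most abundant per kilobase. All 5 ependymal and choroid plexus genes were lower (median −1.71), beside the same 24.8%, but only 2 with the mouse as a block. *Ttr*, the thyroid hormone carrier of choroid plexus, was at 162, 128, 87.2, 89.6 and 65.5 CPM in the IPs and 1270, 712, 1060 and 657 in the inputs, and was the most abundant. That list summed to 187, 157, 110, 111 and 97 CPM in the IPs and 1330, 754, 1120 and 697 in the inputs.

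None of the 4 blood genes passed, with a median of −2.79. With the mouse as a block all 4 were lower (median −3.76), as with the prefix in the model (−3.45). *Hbb-bs*, a hemoglobin chain, was at 917, 17.5, 36.7, 13.2 and 16.1 CPM in the IPs and 703, 4950, 598 and 273 in the inputs. The high value in each preparation belonged to mouse BR17. Without that mouse all 4 genes were lower in IP, with a median of −4.49. Without IP replicate 1 alone the median was −6.13 with 4 called, and without input replicate 2 alone −1.15 with none. Blood genes together held 1890, 39.9, 75.5, 24.1 and 31 CPM in the IPs and 1330, 9410, 1160 and 492 in the inputs. *Hba-a1* and *Hba-a2* are near-identical copies, and how their reads were divided is uncertain.

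Transcripts of the mitochondrial genome, which cytoplasmic ribosomes do not translate, were lower in IP for 13 of 13 genes, beside 24.8% of all genes. Their median was −2.98. They made up 1.81%, 0.58%, 0.41%, 0.57% and 0.71% of IP counts and 7.62%, 4.41%, 5.49% and 6.52% of input counts. *mt-Co1* was at 5990, 2550, 1910, 2410 and 2770 CPM in the IPs and 17600, 11900, 16900 and 20400 in the inputs. IP replicate 1 held the most in the IPs. *mt-Nd3* was at 0 in all 5 IPs and at 308, 52.8, 73.2 and 67 CPM in the inputs. Why this gene alone was at 0 is unclear, and no fold is given. It averaged 1.43 CPM in PV IPs and 1.16 CPM in Gad2 IPs, and its HD ratio (−2.84) did not pass. Apart from *mt-Nd3*, no listed gene was at 0 in all IPs. How far residual RNA of other cells enters the ratios of listed genes was not tested.

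**Figure D2:**
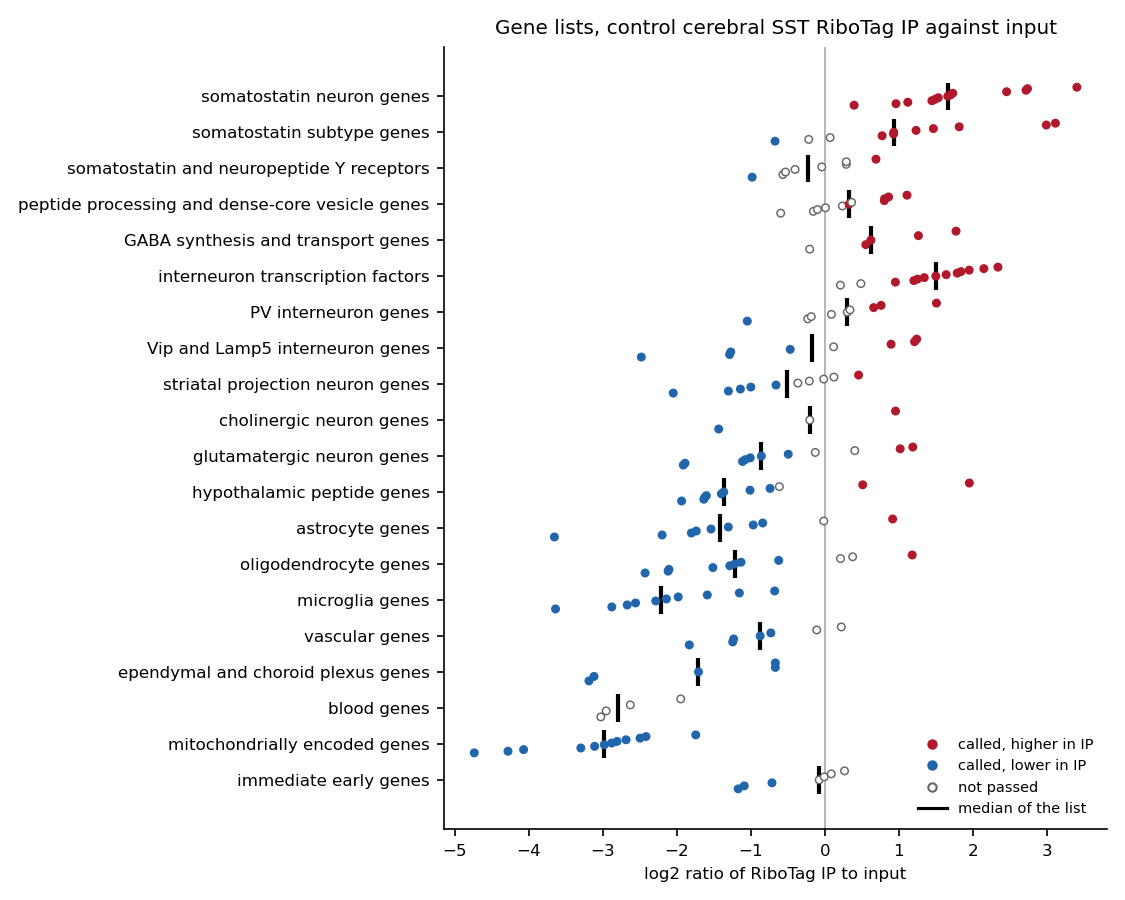
Log2 ratio of RiboTag IP to input for each tested gene of 20 lists in control cerebral SST libraries, red for called higher, blue for called lower, open for not passed, and black lines for list medians. *mt-Nd3*, at 0 in all IPs, is not drawn but counts in its list's median.

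The highest ratios across all genes did not belong to somatostatin neuron genes. *Sst* ranked 38 and *Npy* 83 of 14789 by log2 ratio. Among the highest ratios without overlap was that of the kinase gene *Rock2*, with 1500, 1090, 1640, 2140 and 2690 CPM in the IPs and 67.8, 49.8, 52.7 and 73.2 in the inputs (4.90 ± 0.29). Others were *Cog7*, a subunit of the Golgi COG complex (4.77 ± 0.36), the myosin heavy chain *Myh4* (4.59 ± 0.48), the centrosomal gene *Cntrl* (4.50 ± 0.39) and the zinc finger gene *Zfp966* (4.50 ± 0.69). Lower in this group were the golgin gene *Golga4* (4.33 ± 0.37), the transcription initiation gene *Taf1* (4.29 ± 0.38), the DNA-binding gene *Ahdc1* (4.24 ± 0.41) and the cytoskeletal linker *Macf1* (3.85 ± 0.33). *Zfp966* was at 0 to 0.591 CPM in input, rose to 5.48 without input replicate 4, and may share reads with related zinc finger genes.

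Genes with some of the most CPM in the IPs were *Kif5a*, *Snap25*, *mt-Co1* and *Ndrg4*. The kinesin gene *Kif5a* averaged 3940 ± 972 CPM in IP and 1600 ± 637 CPM in input (SD, n = 5 and 4, log2 1.30 ± 0.29). *Snap25*, of the vesicle fusion machinery, stood at 0.69 ± 0.20 with overlap, and at 0.51 in Z mice alone (edgeR adjusted p = 0.24). *Ndrg4*, a cytoplasmic protein of neurons, was at 0.43 ± 0.13, and with the mouse as a block at 0.38 (adjusted p = 0.0749).

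The 10 lowest ratios were those of *mt-Nd3*, *mt-Atp8*, *Rnase1*, *mt-Co3*, *Bricd5*, *Hist1h4h*, *Xlr*, *mt-Atp6*, *Wfdc2* and *Smagp*. The mitochondrial genes encode subunits of the respiratory chain and of ATP synthase. Others encode a BRICHOS protein (*Bricd5*), histone H4 (*Hist1h4h*) and an X-linked lymphocyte protein (*Xlr*). *Wfdc2* encodes a secreted protein with protease inhibitor domains and *Smagp* a cell adhesion glycoprotein. All but the mitochondrial genes were near the detection limit in IP, and among the mitochondrial genes *mt-Nd3* was at 0 in all IPs. The ribonuclease gene *Rnase1* was at 0.0944, 0.0969, 0.0977, 0 and 0 CPM in the IPs and 2.04, 1.18, 1.25 and 1.34 in the inputs. *Hist1h4h* moved from −4.11 to −6.13, *Smagp* from −3.85 to −5.80 and *Bricd5* from −4.17 to −5.04 without IP replicate 1, and *Xlr* from −4.10 to −5.36 without IP replicate 3, while in Z mice alone *Xlr* was not called (−3.62, edgeR adjusted p = 0.0634). *Wfdc2* was at −4.03, and at −3.14 without input replicate 1. Without IP replicate 1, *mt-Atp8* was at −5.43, *mt-Co3* at −5.13 and *mt-Atp6* at −5.06. *Hist1h4h* and *Xlr* have near-identical copies and their counts are uncertain.

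The ratio followed exon length across genes. Spearman's rho between log2 ratio and exon length was 0.48 over 14789 genes, which are not independent replicates and share the same 9 libraries. With genes divided by length into 3 equal groups, the shortest (median 2.29 kb) had a median ratio of −0.44, with 9.29% higher and 42% lower in IP. The longest (median 8.26 kb) had a median of 0.47, with 47.2% higher and 9.63% lower. *Sst* (0.721 kb) and *Npy* (0.566 kb) are short genes, while *Rock2* (13.9 kb), named for its high ratio, is a long gene. The list counts were set beside the shares of all genes, not of genes of like length. The deviation of input replicate 4 from the other inputs followed length with a rho of 0.48, and that of IP replicate 6 from the other IPs with 0.38. The part of RNA integrity, or of long mRNAs carrying more ribosomes, was not tested.

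In the HD mice of the SST line, whose libraries share no mouse with the controls, 5402 of 14936 genes (36.2%) were called between IP and input, 2923 higher (19.6%) and 2479 lower (16.6%) in IP. At 2-fold or more 3103 genes (20.8%) were called, 1911 higher (12.8%) and 1192 lower (7.98%). Across 14679 genes tested in both, the 2 sets of log2 ratios had a Pearson r of 0.92 and a Spearman rho of 0.94, as a description. Both comparisons called 5058 genes, all in the same direction, which is 67.6% of the 7483 control calls and 94.3% of the 5363 HD calls among these genes. *Sst* was at 1370, 870, 1140 and 2580 CPM in the HD IPs and at 220, 114 and 290 CPM in the HD inputs (log2 2.84). *Npy* was at 385, 327, 293 and 808 CPM in the HD IPs and 85.6, 45.9 and 61.9 CPM in the HD inputs (2.81). IP replicate 4 was the highest for both genes. All 3 HD inputs came from mice that also gave an HD IP, and with the mouse as a block, chosen after seeing the data, 8262 genes were called. The HD count was 3460 without IP replicate 1, 3483 without input replicate 1 and 2825 without input replicate 3.

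By list, all 13 somatostatin neuron genes were higher in HD IPs (median 1.54), as were 7 of 11 subtype genes, with *Calb2* again lower (−0.63). Of the transcription factors 11 of 13 were higher (median 1.51). Among all genes tested in HD mice 19.6% were higher and 16.6% lower. Microglia genes were lower for 9 of 10 (median −2.15). Mitochondrial genes were lower for 3 of 13 in HD mice (median −1.39) and blood genes for 3 of 4, beside 16.6% of all genes. HD IP replicate 2 stood apart, with 3.42% mitochondrial counts against 0.86%, 0.60% and 0.89% in HD IP replicates 1, 3 and 4. Differences in ratio between HD and control mice were not tested. *Rock2* and the 8 other genes named with it for high control ratios had HD log2 ratios of 3.96 (*Macf1*) to 5.21 (*Zfp966*), all called.

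The PV line asks which of these ratios are shared with another class of cerebral GABAergic neurons. The difference of IP to input ratios, SST minus PV, was called for 477 of 14769 genes (3.23%), 237 positive (1.60%) and 240 negative (1.63%). The highest were *Sst* (4.87 ± 0.31), *Ucn3* (4.73 ± 0.79), *Tac2* (3.77 ± 0.32), *Npy* (3.47 ± 0.38) and *Pdyn* (3.44 ± 0.28), all of them peptide precursors. Within the PV line 8677 genes (58.8%) differed between IP and input, 4308 higher (29.2%) and 4369 lower (29.6%). *Sst* averaged 110 CPM in PV IPs and 306 CPM in PV inputs, against 1530 CPM in SST IPs and 145 CPM in SST inputs. *Tac2* (tachykinin 2) did not pass in the SST line (0.12 ± 0.17) and was at −3.65 in the PV line, so that its difference came from the PV side. *Ucn3* (urocortin 3) was low, at 0.692 to 2.88 CPM in SST IPs. Its log2 ratio was 1.575 in the SST line and −3.159 in the PV line. The *Pdyn* ratio was 1.727 in the SST line and −1.715 in the PV line.

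At the other end were *Myl1* (−4.47 ± 0.37), *Mybpc1* (−4.24 ± 0.46), *Cox8b* (−3.43 ± 0.73), *Smpx* (−3.36 ± 0.90) and *Cox6a2* (−3.24 ± 0.45). They encode muscle-type proteins, among them a myosin light chain and 2 subunits of cytochrome c oxidase. *Myl1* was at 1.07 to 1.81 CPM in the SST IPs and averaged 23.8 CPM in the PV IPs. *Cox6a2*, a gene of the PV interneuron list, averaged 3 CPM in SST IPs and 27 CPM in PV IPs. *Smpx* was too low to be tested in the SST line alone.

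By list, 7 of 13 somatostatin neuron genes had a positive difference from PV and none a negative one (median 1.26). Of the subtype genes 6 of 11 were positive (median 1.16), beside 1.60% positive and 1.63% negative among all genes. Of the PV interneuron genes, 8 of 9 were negative (median −1.19). *Pvalb* differed by −2.99 ± 0.37 and averaged 694 CPM in PV IPs, against 167 CPM in SST IPs. Of the transcription factors 1 of 13, *Npas1*, differed (1.70), and *Lhx6* did not pass (0.40). *Gad1* was lower in the SST than in the PV line (−1.36 ± 0.24). Of *Rock2* and the 8 genes named with it, only *Myh4* differed from PV (2.81 ± 0.58). In the control cerebral vGluT2 line, too, the median CPM of each of these genes was higher in the IPs than in the inputs. It was 648 against 53.6 CPM for *Rock2* and 46.9 against 29.1 CPM for *Macf1*. The ratios of that line were not tested. The count of called differences was 771 with DESeq2, 112 with the mouse as a block, 154 with SST BR mice alone and 261 with SST Z mice alone.

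**Figure D3:**
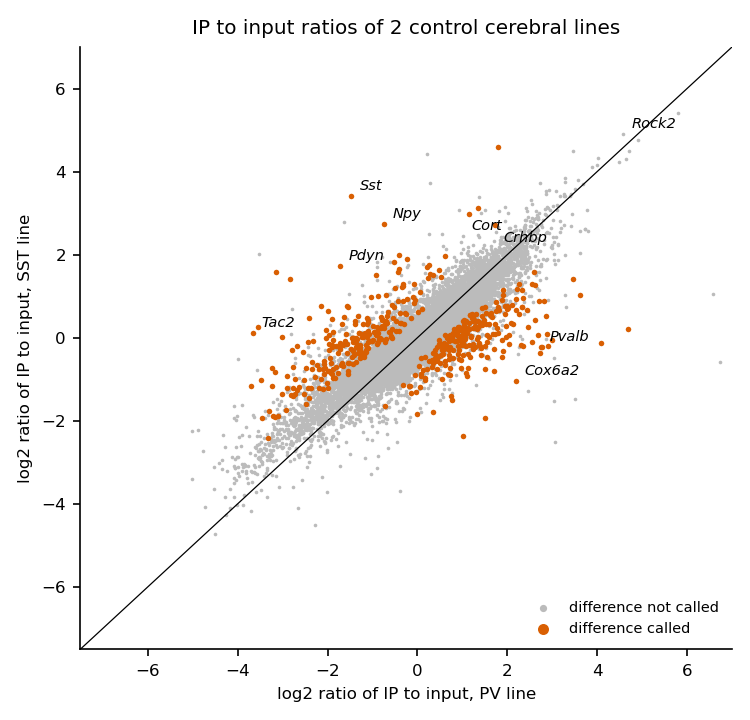
Log2 ratio of IP to input in the PV line (x axis) and in the SST line (y axis), control cerebrum, for 14694 genes tested in both, with 474 called differences in color and a line at equal ratios. *Sst*, *Npy*, *Pdyn* and *Tac2* lie above the line, *Pvalb* and *Cox6a2* below it, and *Rock2* near it, while 5 genes lie outside the axes and *mt-Nd3* is not drawn.

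Against the Gad2 line, which covers cerebral GABAergic neurons in general, 4405 of 14754 genes (29.9%) differed, 1743 positive (11.8%) and 2662 negative (18.0%). With DESeq2 the majority turned, with 2598 positive and 2436 negative. Within the Gad2 line 5744 genes (38.9%) differed between IP and input, 2758 higher (18.7%) and 2986 lower (20.2%). The *Sst* ratio was higher in the SST line, by 1.69 ± 0.28. Part of this lies in the denominator, with means of 1530 CPM in SST IPs and 843 CPM in Gad2 IPs, but 145 CPM in SST inputs and 274 CPM in Gad2 inputs. *Npy* (0.61 ± 0.28) and *Pdyn* (−0.34 ± 0.26) did not pass. Of the 13 somatostatin neuron genes 3 were positive, 1 was negative and 9 did not pass (median 0.325). All 10 striatal projection neuron genes were negative (median −2.96), from *Pde10a* (−1.17) to *Ppp1r1b* (−4.53), and 5 of 8 Vip and Lamp5 genes were negative, *Vip* by −3.95. Of the glutamatergic genes 10 of 11 were positive (median 1.52), as were 8 of 11 oligodendrocyte genes (median 1.43), 6 of 10 astrocyte genes (median 1.29) and 6 of 7 vascular genes (median 1.47). The glutamatergic genes, for example, had a median ratio of −2.47 in the Gad2 line and −0.86 in the SST line. Microglia genes went the other way, with 4 of 10 negative and none positive (median −1.06), and none of the 5 ependymal and choroid plexus genes differed.

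The 5 highest differences from Gad2 were *Cntrl* (4.38 ± 0.71), *Macf1* (4.08 ± 0.62), the transcription factor *Tfap2d* (3.93 ± 0.60), the cadherin *Cdh19* (3.76 ± 0.78) and *Rassf9*, of the Ras association family (3.61 ± 0.89). The lowest were *mt-Nd3* (−9.06), the lectin *Clec12a* (−5.40 ± 0.87), the hypothalamic peptide *Gnrh1* (−5.05 ± 1.13), the relaxin *Rln3* (−4.94 ± 0.90) and the calcium channel subunit *Cacng1* (−4.58). The value of *mt-Nd3* depends on the prior count, since the SST IPs were at 0. *Cacng1* was too low to be tested in the SST line alone, at 0.085 CPM in IP and 0.258 CPM in input. It averaged 1.01 CPM in Gad2 IPs. *Cntrl* averaged 15.5 CPM in SST IPs, 8.67 in PV IPs and 2.64 in Gad2 IPs. On the scale shared by the control cerebral lines, *Cntrl* was at 1.02, 1.7 and 4.85 CPM in the 3 Gad2 inputs. *Macf1* was at 20.2, 26.9 and 119 CPM there, so that 1 input lay far above the others. Gad2 libraries were not left out in turn, and how far these differences rest on 1 input was not tested. *Tfap2d* (0.774) and *Rassf9* (0.145) did not pass between IP and input in the SST line. In the Gad2 line their log2 ratios were −3.251 and −3.558. Of *Rock2* and the 8 genes named with it, 8 had a positive difference from Gad2, beside 11.8% of all genes. *Zfp966* (3.82 ± 1.46) did not pass. These genes were named for high ratios in the same SST libraries, which favors a positive difference. With SST BR mice alone 1897 genes differed from Gad2, and with SST Z mice alone 1943.

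The control SST mice had identifiers with 2 prefixes, BR and Z, and among them the prefix coincided with sex. *Xist*, the noncoding RNA of the inactive X, was at 0 in all 4 BR libraries, at 6.71, 6.63 and 4.5 CPM in the Z IPs and at 0.394 and 0.591 CPM in the Z inputs. The Y-linked *Ddx3y* was at 56.6 and 44.1 CPM in the BR IPs, at 17.6 and 9.69 CPM in the BR inputs and at 0 in every Z library. Prefix and sex cannot be told apart in these control libraries. With preparation in the model, 7 of 14789 genes (0.0473%) differed between Z and BR in edgeR, while 1751 had an unadjusted p under 0.05. With DESeq2 83 were called, 59 higher and 24 lower in Z, so that the majority turned. The prefix differs between mice, the BR libraries came from only 2 mice and Z59 gave 2 libraries, which the fit took as independent. The 7 genes in edgeR were the Y-linked *Ddx3y*, *Eif2s3y*, *Kdm5d* and *Uty*, the glycoprotein hormone subunit *Cga*, *Arc* and *Nr4a1*.

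*Arc* and *Nr4a1*, immediate early genes that neuronal activity induces, were the 2 genes higher in Z mice (0.0135% of those tested, beside 0.0338% lower). *Arc* was at 30.8 and 32.6 CPM in the BR IPs and 122, 104 and 87.3 in the Z IPs. In input it was at 29.9 and 37.5 CPM in BR mice and 116 and 100 in Z mice (log2 difference 1.70 ± 0.15, edgeR adjusted p = 1.79e-04). *Nr4a1* was at 19.1 and 23.4 CPM in the BR IPs, 74.8, 67.7 and 67 in the Z IPs, 28.9 and 21.9 in the BR inputs and 58.7 and 58 in the Z inputs (1.48 ± 0.16). The inputs of BR10, BR17 and Z59 are from mice that also gave IPs and add no independent mice. In the IPs alone, each from another mouse, *Nr4a1* was called (1.73 ± 0.21, edgeR adjusted p = 0.0392) and *Arc* was not (1.74 ± 0.23, edgeR adjusted p = 0.0676). Between IP and input *Arc* was at 0.09 ± 0.47 and *Nr4a1* at 0.27 ± 0.42, and neither passed. Of 7 immediate early genes, 3 were lower in IP than input and 4 did not pass, beside 24.8% lower among all genes. *Egr1* (−1.17 ± 0.17) was among those lower. The median of the 7 genes, −0.08, was 0.02 when scaled by library size alone. It was 0.08, 0.10 and 0.22 without IP replicate 2, input replicate 3 and input replicate 4.

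*Rpl22*, the ribosomal protein gene that carries the tag, was chosen after its values were seen. It was at 87.7, 51.9, 63, 54.6 and 53.8 CPM in the IPs and 145, 94.8, 98.7 and 92 in the inputs, without overlap (log2 −0.79 ± 0.19, edgeR adjusted p = 0.00456).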

How the data were processed

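RNA was measured in 5 RiboTag IP and 4 input libraries of control cerebral SST mice, prepared with a stranded poly(A) kit and sequenced as pairs. The authors processed reads with nf-core/rnaseq 3.0, using STAR and Salmon on GRCm38.p6 per the submitters' processing notes, and what they deposited were estimated counts of genes, not normalized. Of these values 8.57% were not whole (tolerance 1e-06), and all were rounded. The 92 ERCC spike-in entries held 0.164% to 4.45% of the 9 libraries and were left out. Identifiers without version matched GENCODE M21 for 55141 of 55401 genes, of which 21897 were protein-coding. No pair of replicates was as close as counting noise, with a chi-square of at least 28.2 times its degrees of freedom.

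The test of IP against input was glmQLFTest in R 4.3.3 with edgeR 4.0.16, after TMM scaling. Only the groups compared entered a fit, with protein-coding genes whose mean count was over 10, and a gene was called at 0.05 or less after the adjustment of Benjamini and Hochberg. SE is the absolute log2 ratio divided by the square root of F. Differences between lines were interactions in a fit of both lines, and the prefix term was fitted with preparation. CPM used TMM-scaled protein-coding totals, and CPM per kb divided by union exon length. log2(CPM + 1) was used for correlations and components. PV IPs were pooled duplicate precipitations per the study's methods. A total of 24279953 or more leaves genes under 1 CPM with few counts. Unless a block is named, libraries of 1 mouse were treated as independent. The fits without a block were tested on simulated data. Plots were drawn with matplotlib 3.10.9, and tables were made with pandas 2.3.3 and numpy 2.4.6, in Python 3.11.15.

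The members and the 20 lists (180 genes) were chosen with earlier results of these data known, the lists from general knowledge of cell types. Genes named were *Sst*, *Npy*, list members, and the 10 highest and 10 lowest called ratios without overlap and with at least 1 CPM in the higher group. To these came the 5 genes with most CPM in IP, the 5 highest and lowest called genes of each interaction and of the prefix term, and 5 sex genes. Some single genes that met this rule are not reported here. The alternatives were DESeq2 1.42.0, its size factors, library size alone, other filters, all gene types, replicate blocks, the prefix, all inputs, and libraries left out in turn. Omission of mouse Z59 or BR17, and the mouse as a block in HD, were chosen after seeing the data. Promoters came from a RefSeq table of GRCm38.p6.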

Additional observations from a re-analysis of the deposited data

Results flagged for a closer look

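Libraries far from the others of their preparation were looked for in 100 groups of values, of which 19 held such a library, and chance gives about 1 in 20, or 5. The groups share libraries and some share genes, so they are not independent, and these counts are no test against chance. Among the IPs, replicate 3 had a total of 40913915 counts, above the other IPs. Replicate 1 stood above them for mitochondrial counts (1.81% of the library, 16300 CPM over the mitochondrial genes), the blood genes (1890 CPM), *Hbb-bs* (917 CPM), *C1qb* (7.74 CPM) and the hypothalamic peptides (100 CPM). Replicate 6 was low for *Sst* (955 CPM) and *Npy* (266 CPM) and high for the cholinergic genes (36.6 CPM). Replicate 3 was low for *Chodl* (6.3 CPM).

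Among the inputs, replicate 1 stood high for spike-ins (4.45%), *Pvalb* (332 CPM) and *Rpl22* (145 CPM), and replicate 2 for the blood genes (9410 CPM) and *Hbb-bs* (4950 CPM). Replicate 4 was low for the striatal (1380 CPM) and microglia (332 CPM) lists and for *Apoe* (2160 CPM).

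The ratio of IP to input differed between lines, by a test of the difference, for the genes with the most extreme called values. SST minus PV was 4.87 for *Sst*, 4.73 for *Ucn3*, 3.77 for *Tac2*, 3.47 for *Npy* and 3.44 for *Pdyn*. It was −4.47 for *Myl1*, −4.24 for *Mybpc1*, −3.43 for *Cox8b*, −3.36 for *Smpx* and −3.24 for *Cox6a2*. SST minus Gad2 was 4.38 for *Cntrl*, 4.08 for *Macf1*, 3.93 for *Tfap2d*, 3.76 for *Cdh19*, 3.61 for *Rassf9* and 1.69 for *Sst*. It was −9.06 for *mt-Nd3*, −5.40 for *Clec12a*, −5.05 for *Gnrh1*, −4.94 for *Rln3* and −4.58 for *Cacng1*. The *mt-Nd3* value depends on the prior count, and *Cacng1* and *Smpx* were too low to be tested in the SST line alone.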

How the results depend on the processing

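The calls between IP and input numbered 7499, and 5523 to 9156 under all alternatives except Z mice alone, which gave 3601 with 5 libraries, 3538 of them shared with the 7499. With DESeq2 there were 7990, with total RNA of all 4 lines as input 9156, without mouse Z59 7616 and without mouse BR17 6659. Leaving out 1 library gave 6302 to 7776 calls, 3038 to 4063 at 2-fold or more, log2 ratios of 3.31 to 3.53 for *Sst* and 2.60 to 2.88 for *Npy*. Scaling by library size alone moved the median of all genes from −0.02 to 0.11, and 60.3% of calls were then higher in IP instead of 51.2% (4422 higher, 2911 lower). BR mice alone gave 3360 higher and 2163 lower (60.8%). *Sst* and *Npy* passed under every alternative run.

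The title numbers named different mice in IP and input, and deviations of same-numbered libraries correlated at 0.39, −0.11, 0.28 and 0.10, so they were not taken as pairs. A replicate block on that number gave 7598 calls. A replicate block by animal, for which deviations correlated at −0.03 (BR17), 0.11 (BR10) and 0.54 (Z59), gave 6366 calls, 5930 of them shared. *Sst* was at 3.54 and 3.26 and *Npy* at 2.88 and 2.59 under these blocks.

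HD calls (5402) ran from 2825 to 7585 with 1 library left out, 3460 without IP replicate 1, 3483 without input replicate 1 and 2825 without input replicate 3, were 6453 with DESeq2, and 8262 with a replicate block by animal, chosen after seeing the data. SST minus PV calls (477) were 771 with DESeq2, 112 with a replicate block by animal, 154 with SST BR mice alone, 261 with SST Z mice alone, 465 with filterByExpr and 334 to 515 with 1 SST library left out. SST minus Gad2 calls (4405, 39.6% positive) were 1897 with SST BR mice alone, of which 29% were positive, and 1943 with SST Z mice alone. They were 3250 to 4679 with 1 SST library left out and 3001 with a replicate block by animal. DESeq2 gave 5034 with 51.6% positive (2598 positive, 2436 negative). Z minus BR calls (7, 2 of them positive) were 83 with DESeq2 (59 positive, 24 negative) and 6 with IPs alone. The subsets hold fewer libraries, and otherwise the cause was not tested. For named genes, 4333 values over all alternatives stayed on the same side of the threshold, 142 no longer passed and 56 newly passed. No called value changed direction, but some values that did not pass changed sign, such as *Pvalb* (−0.23, and 0.15 without input replicate 1).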

Other observations

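Spike-ins, which are outside the comparison, made up 1.92%, 1.21%, 1.35%, 0.28% and 1.23% of the IP libraries and 4.45%, 0.16%, 0.23% and 0.26% of the inputs. Genes with a count numbered 18036 in IP replicate 6 and 20987 to 21677 in the other IPs. The HD mice of the SST line all had BR identifiers. In their IPs, *Xist* was at 7.05 CPM in replicate 3 and at 0 in the other 3, and *Ddx3y* was at 66.1, 70.2, 0 and 14.7 CPM. Depth limited genes near 1 CPM. Of the 9 libraries 6 came from the 3 mice with both preparations. No value of the SST line was available here by brain region, so that cortical, striatal and hypothalamic somatostatin cells cannot be told apart.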
